A study of Mus musculus with 3 samples.

Results

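Progenitors of the embryonic mouse dorsal forebrain midline that carry RNA of the secreted ligands Fgf8, Fgf17 and Fgf18 are described here, cell by cell and gene by gene. A cell was included if it had at least 1000 genes, at least 2000 UMIs (unique molecular identifiers, 1 per captured RNA molecule) and at most 10% mitochondrial UMIs, held at least 3 UMIs of the ligands summed, and stayed within limits on RNAs of other cell types. These limits were at most 2 UMIs of Col3a1 (mesenchyme), under 8 UMIs per 10000 of Tubb3 and Stmn2 (neurons), under 20 per 10000 of Ttr (choroid plexus), at most 4 of Neurog2, Eomes and Gadd45g (intermediate progenitors) and at most 3 of Wnt3a, Rspo1 and Rspo2 (cortical hem). The rule found 360 cells, called Fgf cells below, among 33001 cells that passed the cell filter and 43081 deposited barcodes. The knockout library gave 334 of them, wild-type library 1 gave 19 and wild-type library 2 gave 7. They were set against Fgf-zero cells, which met every other limit in the same library and held no UMI of the ligands: 4742 in the knockout library, 2456 in wild-type library 1 and 1999 in wild-type library 2. The cells were selected on their ligand UMIs, so ligand levels are a description and support nothing else.

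Fgf8, Fgf17 and Fgf18 form one subfamily of fibroblast growth factors that signal through receptor tyrosine kinases. In the forebrain they are secreted by the rostral patterning centre at the anterior midline, which becomes commissural plate and septum and sets anterior identity in the cortical primordium, and Fgf8 and Fgf17 are also ligands of the isthmic organizer between midbrain and hindbrain. Cells that receive the signal switch on Etv factors and feedback inhibitors of the Sprouty, Spred and dual-specificity phosphatase families. The cortical hem, the signalling centre at the caudomedial edge, secretes Wnt and Bmp proteins instead.

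The study profiled dissected midline tissue of C57BL/6J embryos, both hemispheres, with droplet 3′ RNA sequencing (10x Genomics, version 3 chemistry). The knockout library came from 4 pooled Gmnc-/- embryos at E12.5, for which no Cre or reporter allele is named. The wild-type suspension, from which both wild-type libraries were drawn, mixed embryos of different age and transgene. It held 4 PGKCre;Rosa26YFP embryos, aged E11.5, in which Cre is active in all tissues, and 4 Wnt3aCre;Rosa26tdTomato embryos, aged E12.5, in which Cre marks the hem lineage. Each genotype is therefore 1 suspension: there is no biological replicate, no test was run, and genotype cannot be told apart from stage, pool, reporter background or processing run. The wild-type libraries are technical repeats whose mean counts as 1 sample. Each level is given in CPM (counts scaled to a common total of each class and library), with 95% intervals that cover counting error only.

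Targeted-gene RNA was examined first. Gmnc, a Geminin-related regulator of multiciliation (chr16:26913553-26991652, GRCm38), was at 42.7 CPM [41.8 to 43.5] over all passing cells of the knockout library, against 29.8 [28.9 to 30.7] and 31.1 [30.2 to 32.0] in the wild-type libraries. It was not lower in the library labelled Gmnc-/-. Tags from the 3′ end need not lie in the deleted part, which the labels do not place, so Gmnc itself does not check the label. Its known downstream genes differed: Mcidas had 3 UMIs among 15375 knockout cells, against 2566 and 2743 UMIs in the wild-type libraries, and Ccno had 0.0890 CPM, against 48.3 and 52.9 CPM. In the Fgf cells Gmnc was close to 0 everywhere, with 7 UMIs in the knockout library and 0 in both wild-type libraries.

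Libraries held 259403297, 148073906 and 139978761 UMIs (knockout, wild type 1, wild type 2), and passing cells had medians of 9933, 12327 and 13452 UMIs. Wild-type libraries 1 and 2 shared 1914 barcodes, of which 98.6% differed over 10-fold in UMIs, and 52 shared barcodes passed the filter in both; none belonged to an Fgf cell in both. The knockout shared 78 barcodes with wild-type library 1 and 42 with library 2. Leaving out every barcode found in another library left each count given below within 1.5 times its value. No doublets were removed. Blood, microglial and endothelial cells made up 6.73% of Fgf-zero cells in the knockout, against 9.57% and 10.4% in the wild-type libraries, and genes that turn on them are named as such below.

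The Fgf cells had progenitor RNA. Sox2, a neural progenitor factor, was detected in 88.0% of knockout Fgf cells and in 89.5% and 71.4% of wild-type Fgf cells, and in 83.3%, 86.9% and 87.1% of Fgf-zero cells. The 14 listed neural progenitor genes summed to 3433 CPM in knockout Fgf cells and 3300 CPM in knockout Fgf-zero cells. In wild-type Fgf cells the sums were 2847 and 3469 CPM, against 2986 and 2989 CPM in Fgf-zero cells. Vim, a filament gene of radial glia, made up most of the sums of wild-type Fgf cells, with 1835 and 2444 CPM, against 1284 and 1283 CPM in Fgf-zero cells. By gene, 9 of the 14 had the lower CPM in Fgf cells of the knockout, and 11 of the 14 in those of the summed wild type. Sox9, a radial glial factor, had 115 CPM in knockout Fgf cells and 23.8 and 26.3 CPM in wild-type Fgf cells, against 228 CPM in knockout and 146 CPM in summed wild-type Fgf-zero cells. Proliferation RNA was present too: Mki67 or Top2a was found in 59.6% of knockout Fgf cells and 75.6% of knockout Fgf-zero cells. In wild-type libraries 1 and 2 it was found in 14 of 19 (73.7%) and 2 of 7 (28.6%) Fgf cells, against 83.5% and 82.7% of Fgf-zero cells.

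Fgf cells made up 2.17% of passing cells in the knockout library (334 of 15375, exact 95% interval 1.95% to 2.42%). In wild-type libraries 1 and 2 they made up 0.201% (19 of 9468, 0.121% to 0.313%) and 0.0858% (7 of 8158, 0.0345% to 0.177%). The knockout share was above both wild-type shares, and the intervals do not overlap. Among cells within all other limits the shares were 6.29%, 0.757% and 0.346%. With every cell thinned to 4000 UMIs and 1 ligand UMI required, they were 2.65%, 0.409% and 0.126%; unthinned, with 1 ligand UMI, they were 3.68%, 0.570% and 0.319%. Thinning left out 7.86%, 1.92% and 2.76% of cells.

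Ligand RNA was also frequent outside the limits. Before the limits on other cell types, 824 knockout cells (5.36%) held at least 3 ligand UMIs, against 95 (1.003%) and 63 (0.772%) in the wild-type libraries. The hem limit of Wnt3a, Rspo1 and Rspo2 was exceeded by 46.5% of these cells in the knockout, against 61.1% and 69.8% in wild-type libraries 1 and 2. Ttr was over its limit in 17.4% of such knockout cells, against 47.4% and 55.6% in the wild type. The shares before these limits thus differed in the same direction, with a smaller ratio of knockout to wild type.

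Erythroid cells, which should lack the ligands, were used to gauge ligand UMIs from free RNA. Doublets were not removed, so the gauge cannot tell free RNA from doublets. A ligand UMI was present in 26 of 354 erythroid cells of the knockout (7.34%), in 4 of 225 (1.78%) of wild-type library 1 and in 0 of 195 of library 2, which allows up to 1.87%. Erythroid cells had medians of 17191.5, 16813 and 18682 UMIs, above the 7547.5, 10172 and 9599 UMIs of Fgf cells. At the 3 UMIs of the rule, 7 of 354 knockout erythroid cells qualified, with 3 to 15 ligand UMIs, and none of the others did. Of the knockout Fgf cells, 3 were erythroid by their haemoglobin, with 7 to 15 ligand UMIs.

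The knockout Fgf cells were unevenly spread over cells with and without Xist, the RNA of the inactive X chromosome in females. In the knockout library 4.03% of cells with Xist and no Y-linked UMI were Fgf cells (297 of 7378), against 0.355% of cells with a Y-linked and no Xist UMI (14 of 3942). Wild-type library 1 had 18 of 5773 (0.312%) and 1 of 2149 (0.0465%), and library 2 had 3 of 4997 (0.06004%) and 3 of 1923 (0.156%). Xist was detected in 92.5% of knockout Fgf cells and 53.5% of knockout Fgf-zero cells. With 4 pooled embryos and no embryo labels, sex, the contribution of single embryos and the extent of each dissection cannot be told apart, and their part in the share was not tested. Among cells with a Y-linked and no Xist UMI, the knockout share rested on 14 Fgf cells, against 1 and 3 in wild-type libraries 1 and 2. It was above both by value, but its interval (0.194% to 0.595%) overlaps both of theirs.

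**Figure D1:**
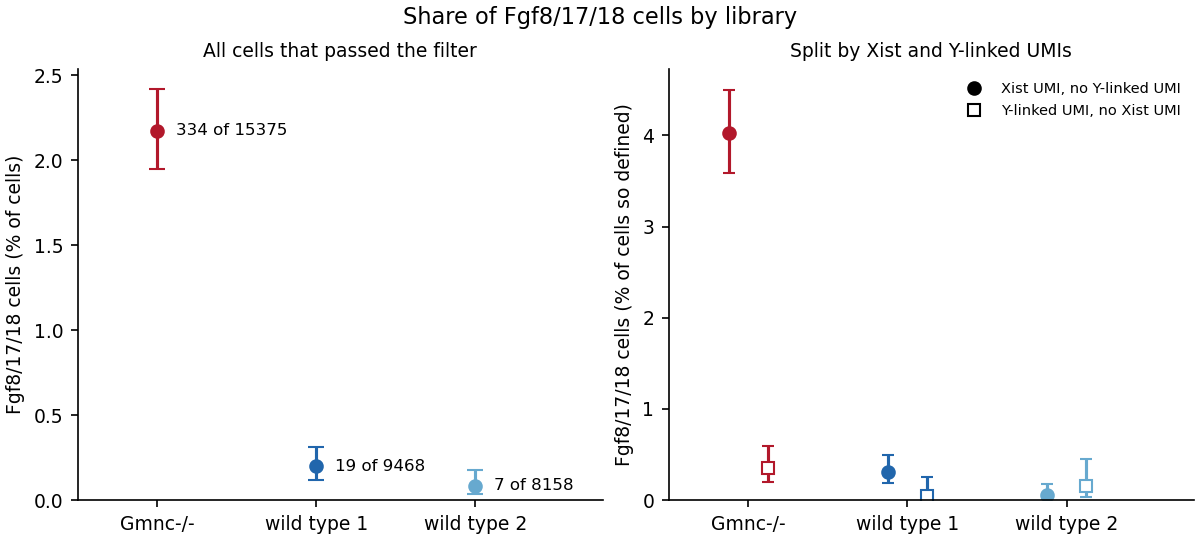
Share of Fgf cells among cells that passed the filter (%), left for all cells and right for cells split by Xist and Y-linked UMIs; points are shares and bars exact 95% intervals. The knockout library stands at 2.17% with the wild-type libraries at 0.201% and 0.0858%, and within the knockout the cells with Xist stand at 4.03% and those with Y-linked UMIs at 0.355%.

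Stage differed as well. In wild-type libraries the eYFP transcript, carried by E11.5 embryos, was found in 21 of 26 Fgf cells (80.8%) and in 58.5% of Fgf-zero cells. The tdTomato transcript of the E12.5 embryos was found in 1 of 26 (3.85%) Fgf cells and 7.95% of Fgf-zero cells. Most wild-type Fgf cells thus carried the reporter of the E11.5 embryos, while every knockout cell came from E12.5, and the part of stage cannot be told apart from that of genotype.

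Fgf17 was the most abundant ligand by UMIs in all 3 libraries. Fgf17 (chr14:70636203-70642268, minus strand) had 1057 CPM [1024 to 1091] in knockout Fgf cells, against 789 [674 to 919] and 802 [613 to 1030] CPM in wild-type Fgf cells. Fgf8 (chr19:45736798-45742915, minus strand) had 517 [494 to 541] CPM, against 185 [132 to 253] and 237 [140 to 374] CPM. Fgf18 (chr11:33117430-33147400, minus strand) had 98.3 [88.4 to 109] CPM, against 28.5 [10.5 to 62.1] and 26.3 [3.18 to 94.9] CPM from 6 and 2 UMIs. The order Fgf17, Fgf8, Fgf18 held in each library; 3′ tags count molecules, so no length correction applies to these levels.

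Single cells differed in which ligand they carried. In the knockout, Fgf17 was detected in 275 of 334 Fgf cells (82.3%), Fgf8 in 273 (81.7%) and Fgf18 in 158 (47.3%). In wild-type library 1 the numbers were 18, 11 and 3 of 19, and in library 2 they were 7, 3 and 2 of 7. All ligands together were found in 129 knockout cells, 2 cells of wild-type library 1 and 1 of library 2. A further 86 knockout cells had Fgf8 and Fgf17 without Fgf18, while 49 had Fgf17 alone, 41 Fgf8 alone and 1 Fgf18 alone. The rule sums the ligands, so a cell with 1 or 2 Fgf18 UMIs could enter only with another ligand, and nothing is read from that combination.

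By the ligand with the most UMIs, 230 knockout cells were led by Fgf17, 89 by Fgf8 and 4 by Fgf18, with 11 ties. In the wild type 18 of 19 and 4 of 7 cells were led by Fgf17. The summed ligand UMIs per cell had a median of 11 in the knockout and 9 and 12 in the wild-type libraries, with maxima of 224, 34 and 23. Cells just inside the threshold, with exactly 3 UMIs, numbered 26 in the knockout, against 51 just outside with 2 UMIs and 181 with 1 UMI. At 3, 2 and 1 ligand UMIs, Zic4 stood at 404, 380 and 87.3 CPM, Otx2 at 249, 256 and 48.9 CPM, and Il17rd at 87.0, 98.4 and 24.0 CPM. Cells with 2 UMIs therefore resembled those with 3 in these genes, and cells with 1 UMI did not. Sulf1 differed between 3 and 2 UMIs, at 94.9 [60.8 to 141.3] and 181 [144.5 to 224.9] CPM, with 44.1 CPM at 1 UMI. Hbb-y, a haemoglobin RNA, stood at 953, 17470 and 10780 CPM in the same classes.

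**Figure D2:**
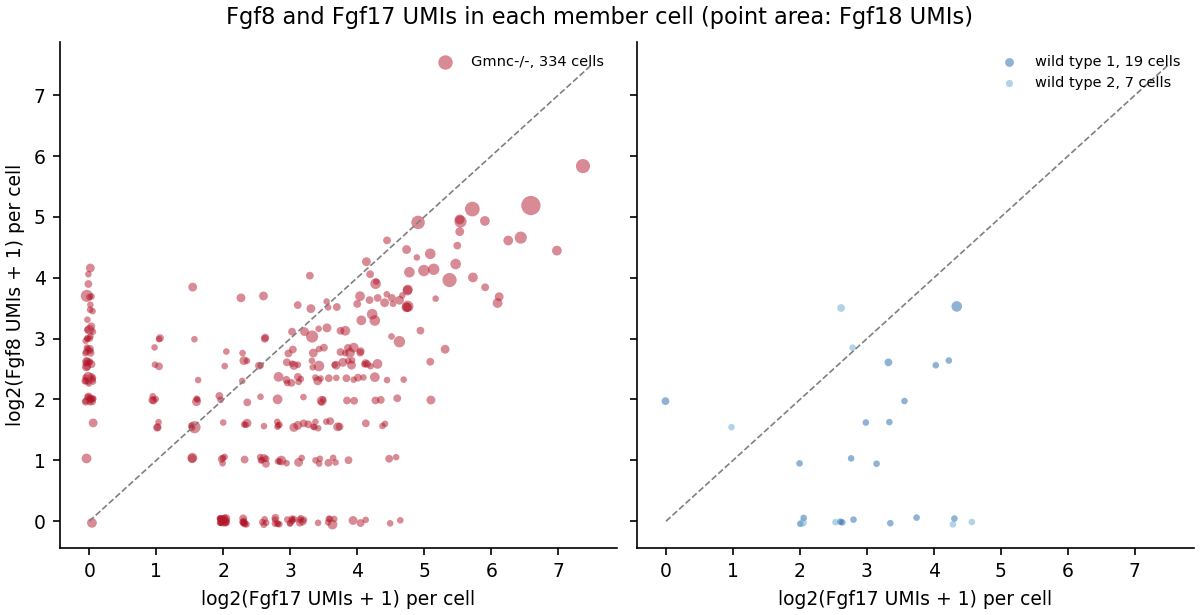
Fgf8 against Fgf17 UMIs in each Fgf cell on log2(UMIs + 1) axes, left for the 334 knockout cells and right for the 19 and 7 wild-type cells; point area grows with Fgf18 UMIs and the dashed line marks equal counts. Most points lie below the line, where Fgf17 leads (230 of 334 in the knockout), and the 89 knockout cells led by Fgf8 lie above it.

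Genes were called higher or lower in Fgf cells than in Fgf-zero cells where the CPM differed at least 2-fold, the 95% intervals did not overlap and the higher side had at least 50 UMIs and 20 CPM. In the knockout library 564 of 6668 genes tested (8.46%) were called higher and 159 (2.38%) lower. In the wild-type libraries summed, 108 of 5717 (1.89%) were higher and 500 (8.75%) lower. Counts of called list members below are to be read beside these shares of all genes tested. Because wild-type Fgf cells held only 211016 and 76346 UMIs, against 3666564 in the knockout, a gene scarce in them could pass the count limit mainly through the Fgf-zero side. Called higher in all 3 libraries taken singly were 9 of 5388 genes (0.167%), and lower 52 (0.965%). Without wild-type library 2, the smallest class, 38 were higher and 98 lower; without the knockout, 143 were lower.

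The listed Fgf feedback and target genes, which report reception of the signal, were raised in the knockout Fgf cells. Of 22 listed genes 15 were tested there, 11 were called higher and none lower, with a median log2 ratio of 1.69 beside 0.11 for all genes tested. A gene that passes the count limit through the Fgf side alone had to be higher, as 10 of the 15 did, so the count is a description. Over the whole list, 19 of 22 genes had the higher CPM in Fgf cells, and the list summed to 1439 CPM in knockout Fgf cells and 428 CPM in Fgf-zero cells. In wild-type Fgf cells it summed to 1264 and 1169 CPM, against 330 and 328 CPM in Fgf-zero cells. In the wild type 15 of 22 had the higher CPM, 4 were tested, and 1, Spry1, was called higher, with a median of 0.33 beside 0.01 for all genes tested.

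Il17rd (Sef), a transmembrane inhibitor of Fgf receptors, had 314.5 CPM in knockout Fgf cells and 12.1 CPM in Fgf-zero cells, a ratio of 26.1 [23.6 to 28.8]. In wild-type Fgf cells it had 61.8 and 13.1 CPM, against 1.80 and 1.93 CPM in Fgf-zero cells. It was detected in 74.6% of knockout Fgf cells, 10.7% of knockout Fgf-zero cells and 12.1% of erythroid cells. Spry1, a Sprouty inhibitor of receptor signalling, was highest by value in the wild type. It had 194 CPM in knockout Fgf cells and 471 and 526 CPM in wild-type Fgf cells, against 16.3 CPM in knockout and 13.4 and 13.0 CPM in wild-type Fgf-zero cells. All 26 wild-type Fgf cells had a Spry1 UMI, while 75.2% of knockout Fgf cells did. Spry2, its paralog, had 57.8 CPM in knockout Fgf cells and 4.20 CPM in Fgf-zero cells, a ratio of 13.8 [11.4 to 16.7].

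The transcription factors of the pathway were lower in level. Etv4 had 31.4 CPM in knockout Fgf cells and 33.3 and 26.3 CPM in wild-type Fgf cells, against 4.14, 0.886 and 0.761 CPM in the Fgf-zero cells of the same libraries. Etv5 had 47.9, 33.3 and 52.5 CPM in Fgf cells, against 14.2, 3.16 and 3.33 CPM. Etv1 had 61.4 CPM in knockout Fgf cells and 15.1 CPM in Fgf-zero cells. All of these factors were higher by value in each of the 3 libraries, but only the knockout counts reached the 50 UMIs needed for a call.

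Dusp6, the phosphatase that switches off ERK, had 70.8, 90.3 and 78.8 CPM in Fgf cells of the knockout and wild-type libraries 1 and 2, against 14.0, 5.09 and 4.37 CPM in Fgf-zero cells. Spred3, Dusp5, Spred1 and Fos were also called higher in the knockout, with ratios of 4.52, 3.57, 2.29 and 3.02. Fos is also a gene of the dissociation response, whose 12 listed genes summed to 1236 CPM in knockout Fgf cells and 1063 CPM in Fgf-zero cells. Ccnd1, a cell cycle target, had 271 and 152 CPM and was not called. Egr1 had 32.5 and 27.0 CPM and was not called either.

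**Figure D3:**
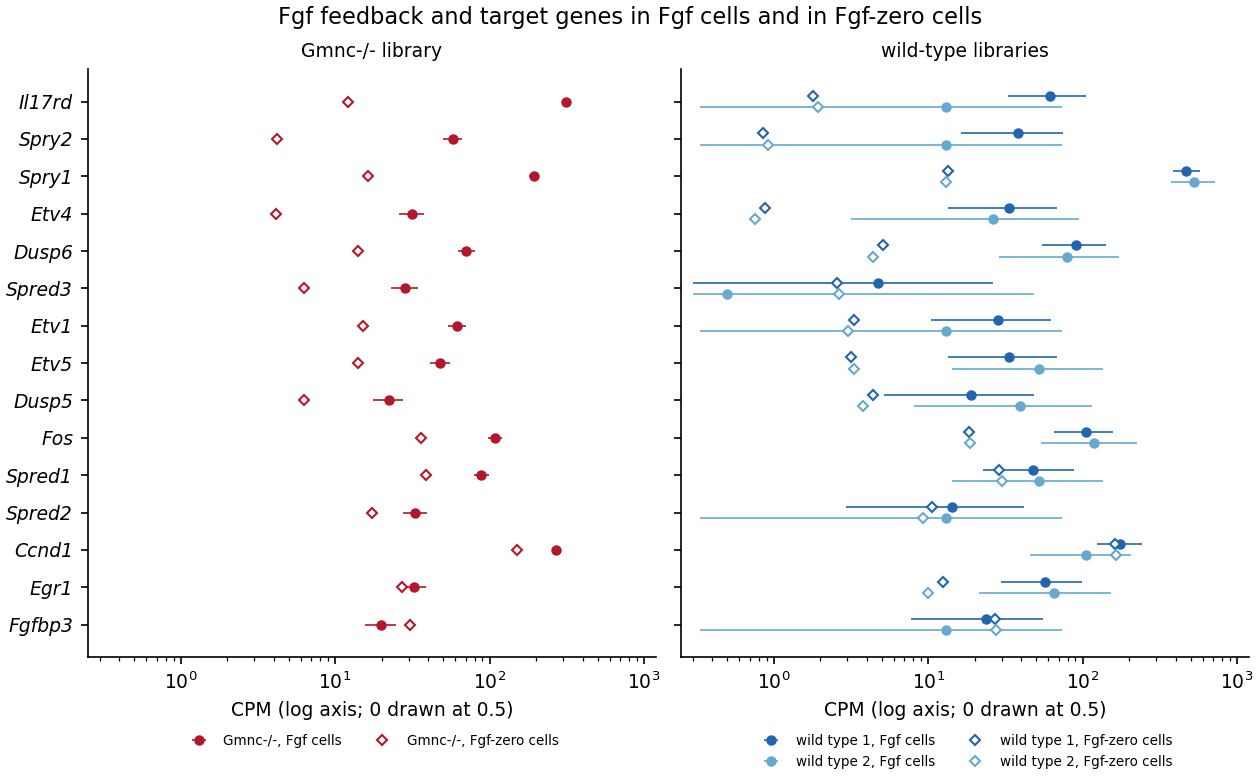
CPM (log axis, 0 drawn at 0.5) of the 15 Fgf feedback and target genes tested in the knockout, left for the knockout and right for the wild-type libraries; filled points with 95% counting intervals are Fgf cells and open diamonds Fgf-zero cells. In the knockout 11 genes are called higher, with Il17rd at 314.5 and 12.1 CPM, and in the wild type Spry1 stands apart at 471 and 526 CPM.

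Promoter windows of the feedback inhibitors with the highest ratios are shown because the Etv factors, which were called higher beside them, are known to bind a short core, CCGGAA, searched here on both strands. Each window runs from 250 bases before to 50 after the gene start, from RefSeq on GRCm38.p6, and capitals mark the core.
Spry2 (chr14:105896770-105897069, minus strand): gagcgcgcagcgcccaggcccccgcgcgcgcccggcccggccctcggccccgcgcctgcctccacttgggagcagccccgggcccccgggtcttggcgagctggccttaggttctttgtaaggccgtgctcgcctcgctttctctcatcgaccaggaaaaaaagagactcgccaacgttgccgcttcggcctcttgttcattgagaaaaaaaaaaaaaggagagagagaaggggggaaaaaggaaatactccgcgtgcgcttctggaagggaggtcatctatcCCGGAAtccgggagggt
Spry1 (chr3:37639697-37639996, plus strand): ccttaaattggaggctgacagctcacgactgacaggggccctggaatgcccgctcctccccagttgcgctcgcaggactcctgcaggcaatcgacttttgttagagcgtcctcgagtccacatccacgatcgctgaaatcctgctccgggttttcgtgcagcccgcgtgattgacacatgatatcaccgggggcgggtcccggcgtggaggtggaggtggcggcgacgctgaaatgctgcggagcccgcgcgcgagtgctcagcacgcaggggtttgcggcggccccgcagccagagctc
Il17rd (chr14:27038751-27039050, plus strand): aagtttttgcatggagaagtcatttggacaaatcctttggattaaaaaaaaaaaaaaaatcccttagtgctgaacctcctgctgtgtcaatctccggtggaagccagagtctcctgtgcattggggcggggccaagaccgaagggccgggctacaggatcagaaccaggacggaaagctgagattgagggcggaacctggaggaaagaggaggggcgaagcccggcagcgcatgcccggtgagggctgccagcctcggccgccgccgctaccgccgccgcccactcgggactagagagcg
The core was present in the Spry2 window, starting 33 bases after the gene start, and not in those of Spry1 and Il17rd. Of the 11 feedback genes called higher 10 were matched, with 12 windows, and Etv4 was not; 1 window (8.33%) held the core, beside 4894 of all 32851 windows (14.9%). With so few windows, some of them of the same gene, the shares cannot show whether the core is more or less frequent than in promoters at large.

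Receptors were called in both directions in the knockout. Of 23 listed receptors and co-receptors, 13 were tested in the knockout, with 3 higher, 2 lower and a median log2 ratio of -0.22. Shares of all genes tested were 8.46% higher and 2.38% lower in the knockout, and 1.89% and 8.75% in the summed wild type. For the summed wild type 10 were tested, with none higher, 5 lower and a median of -0.73, but all 10 passed the count limit through the Fgf-zero side alone, so that a call could only be lower. Fgfr1 had 110 CPM in knockout Fgf cells and 143 and 158 CPM in wild-type Fgf cells, against 60.4, 55.1 and 56.3 CPM in Fgf-zero cells, and was not called. Fgfr3, a receptor of dorsal and caudal progenitors, had 20.9 CPM in knockout Fgf cells and no UMI in wild-type Fgf cells, against 72.8, 117 and 117 CPM in Fgf-zero cells. In the summed wild type it was at least 11.2-fold lower, with the floor set at 3 counts over the class. Flrt1, a membrane partner of Fgf receptors, had 75.7 CPM in knockout Fgf cells and 11.7 CPM in Fgf-zero cells. Sdc2 and Gpc3, heparan sulfate proteoglycans, were also called higher, with ratios of 2.85 and 3.04, and Gpc1 was lower at 0.396.

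Of 19 other listed Fgf ligands 2 were tested in the knockout, and Fgf15 was called higher. Fgf15, an Fgf of the forebrain midline and midbrain, had 108 CPM in knockout Fgf cells and 3.74 CPM in knockout Fgf-zero cells, a ratio of 28.8 [24.2 to 34.4]. It was detected in 33.2% of knockout Fgf cells and 0.565% of knockout erythroid cells. No wild-type Fgf cell had a UMI of it, and wild-type Fgf-zero cells had 3.101 and 3.486 CPM. Fgf13, an intracellular member of the family, had 27.5 CPM in knockout Fgf cells and 35.3 CPM in Fgf-zero cells and was not called.

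The genes called higher in every library numbered 9. Zic4, a zinc finger factor of the dorsal midline, had 622 CPM in knockout Fgf cells and 608.5 and 670 CPM in wild-type Fgf cells, against 40.0, 10.2 and 8.02 CPM in Fgf-zero cells. Its level in Fgf cells was alike in both genotypes. Sulf1, an extracellular sulfatase that trims heparan sulfate, had 216, 1032 and 1064 CPM in Fgf cells, against 19.7, 13.2 and 9.63 CPM. Rspo3, a secreted enhancer of Wnt signalling, had 640.5, 1032 and 1209 CPM, against 177, 87.7 and 85.4 CPM. The others were Cdkn1c, Ezr, Mest, Sparc, Igfbp2 and Nxn, with knockout ratios between 2.34 for Nxn and 7.96 for Cdkn1c.

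Several rostral and septal patterning genes were high in the Fgf cells. Of 20 listed, 12 were tested in the knockout, with a median log2 ratio of 1.87, the same with genes at 0 set to their bound. Called higher were 9 and lower 1, beside 8.46% and 2.38% of all genes tested. Of the 12, 4 passed the count limit through the Fgf side alone and so had to be higher, and over the whole list 12 genes had the higher and 8 the lower CPM in Fgf cells. In the summed wild type 9 were tested, with 3 higher (Six3, Zic1 and Zic4) and 2 lower (Sp8 and Fezf2). Of all genes tested there, 1.89% were higher and 8.75% lower. Over the whole list 8 genes had the higher and 8 the lower CPM in wild-type Fgf cells. Six3, the homeobox factor of the most anterior neural plate, had 329 CPM in knockout Fgf cells and 409 and 315 CPM in wild-type Fgf cells, against 3.47, 2.94 and 2.06 CPM in Fgf-zero cells. The ratio was 94.8 [81.1 to 111] in the knockout and 152 [118.5 to 194] in the summed wild type. Six3 was detected in 77.0% of knockout, 100% of wild-type library 1 and 71.4% of wild-type library 2 Fgf cells, against 13.0%, 4% and 2.05% of erythroid cells.

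Further members of the rostral list were seen in both genotypes by value. Fezf1, a zinc finger repressor of the anterior forebrain, had 35.0 CPM in knockout Fgf cells and 124 and 92.0 CPM in wild-type Fgf cells, against 0.629, 1.30 and 0.761 CPM in Fgf-zero cells. Lhx5, a LIM factor of the septum and hypothalamic border, had 57.0, 128 and 52.5 CPM in Fgf cells, against 1.72, 1.14 and 0.982 CPM. Six6, a relative of Six3 known in the hypothalamus and eye, had 79 UMIs (21.8 CPM) in knockout Fgf cells and none in Fgf-zero cells, at least 380-fold higher, and none in wild-type Fgf cells. Zic1, Zic2 and Zic5 had ratios of 3.91, 3.51 and 2.85 in the knockout.

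Sp8, a zinc finger factor that acts with Fgf8, did not follow. It had 72.2 CPM in knockout Fgf cells and 67.5 CPM in Fgf-zero cells and was not called. In wild-type Fgf cells it had 14.3 and 0 CPM, against 38.2 and 35.7 CPM.

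Most listed cortical patterning genes were lower in Fgf cells. Of 13 listed telencephalic genes 12 were tested in the knockout, 6 were called lower and none higher, with a median log2 ratio of -1.21. The share of all genes called lower was 2.38% in the knockout and 8.75% in the summed wild type. Over the whole list, 12 had the lower and 1 the higher CPM in knockout Fgf cells, against 11 and 2 in the summed wild type. In the summed wild type 6 of 11 tested were lower and none higher, with a median log2 ratio of -1.21, but 10 of the 11 passed through the Fgf-zero side alone and could only be called lower. Lhx2, the cortical selector factor that opposes hem fate, had 142 CPM in knockout Fgf cells and 23.8 and 13.1 CPM in wild-type Fgf cells, against 661, 1013 and 998 CPM in Fgf-zero cells. Emx1, a dorsal pallial homeobox factor, had 25.6, 19.0 and 13.1 CPM, against 109, 154 and 157 CPM. Nr2f1 (COUP-TFI), known as a target repressed by Fgf8 in cortex, had 86.2 CPM in knockout Fgf cells and 4.75 and 0 CPM in wild-type Fgf cells, against 257, 439 and 435 CPM in Fgf-zero cells. Emx2, Dmrt3 and Hopx were the other genes called lower in the knockout. Nr2f2, also on the list, ran the other way, with 59.5 CPM in knockout Fgf cells and 185 and 131 CPM in wild-type Fgf cells. Its Fgf-zero level was 34.5 CPM in the knockout and in the summed wild type. Dmrta2 had 283 CPM in Fgf cells and 196 CPM in Fgf-zero cells of the summed wild type, but 118 and 187 CPM in the knockout. Neither gene was called.

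Also called lower in every library, by the rule for named genes, were Lmo2, Lrrn1, Mycn, Mt1, Id4, Mpped2, Bach2, Sfrp1 and Hey1. Id4, an inhibitor of helix-loop-helix factors, had 132 CPM in knockout Fgf cells and 9.51 and 13.1 CPM in wild-type Fgf cells, against 525, 307 and 324 CPM in Fgf-zero cells. Hey1, a Notch target, had 15.2, 0 and 26.3 CPM, against 55.4, 104 and 104 CPM. The knockout ratios of these 9 genes lay between 0.218 for Mycn and 0.279 for Sfrp1.

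Diencephalic, choroid and isthmic genes were present beside the rostral ones. Otx2, a homeobox factor of midline, diencephalon and choroid plexus, had 373 CPM in knockout Fgf cells and 357 and 355 CPM in wild-type Fgf cells, against 17.1, 7.14 and 5.58 CPM in Fgf-zero cells. It was detected in 87.1% of knockout Fgf cells, against 25.7% of knockout erythroid cells. Pax3, a dorsal neural tube factor, had 40.2, 90.3 and 78.8 CPM in Fgf cells, against 0.744, 0.111 and 0.127 CPM. Of 23 listed diencephalic genes 9 were tested in the knockout, with 5 higher (Barhl2, Tcf7l2, Lhx5, Otx2 and Pax3), 2 lower (Lhx9 and Meis2) and a median of 1.57; 4 of the 9 passed through the Fgf side alone and so had to be higher. Of the list 6 were tested in the summed wild type, with 2 higher, 2 lower and a median of 0.64. Among all genes tested, 8.46% were higher and 2.38% lower in the knockout, and 1.89% and 8.75% in the summed wild type.

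Among isthmic genes, Pax5, Pax2 and Pax8 had the most RNA in knockout Fgf cells. Pax5 had 35.8 CPM (130 UMIs in 67 cells) and Pax2 had 27.0 CPM (98 UMIs in 55 cells) in knockout Fgf cells, while both were at 0.0381 and 0.0191 CPM in Fgf-zero cells. Pax8 had 58 UMIs in knockout Fgf cells and none in Fgf-zero cells, at least 279-fold higher. En2 and Gbx2, other defining genes of the isthmus, had no UMI in knockout Fgf cells. En1, Wnt1, Cnpy1 and Lmx1b had 1.10, 1.93, 3.86 and 0.275 CPM there. Of the 9 listed, 7 had the higher and 1 the lower CPM in knockout Fgf cells than in Fgf-zero cells. Only Pax5 and Pax2 were tested, both through the Fgf side alone, so they had to be higher. The 9 listed isthmic genes summed to 85.9 CPM in knockout Fgf cells, against 9.51 and 0 CPM in wild-type Fgf cells. Pax2 is also known from the optic stalk, so the list alone does not place these cells.

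Genes of neighbouring cell types were measured by list. All 5 choroid plexus genes tested in the knockout were higher (Otx2, Trpm3, Folr1, Clic6 and Rbm47), each of which passed through the Fgf side alone. The 10 listed without Ttr, which the rule limited, summed to 561.5 CPM in knockout Fgf cells and 1036 and 1038 CPM in wild-type Fgf cells, against 41.3, 22.5 and 15.5 CPM in Fgf-zero cells. Folr1, the folate receptor of choroid epithelium, had 33.9, 262 and 171 CPM in Fgf cells, and Kcnj13, Aqp1, Htr2c and Prlr, genes of mature epithelium, had no UMI in wild-type Fgf cells. The 10 listed hem genes that the rule did not use summed to 1118 CPM in knockout Fgf cells and 2424 and 2720 CPM in wild-type Fgf cells, against 499.7, 328 and 314.6 CPM in Fgf-zero cells. In the knockout 3 of 5 tested were higher and none lower, with 2 of the 5 passing through the Fgf side alone. Of 4 tested in the summed wild type 3 were higher (Rspo3, Msx1 and Wnt8b) and none lower, with a median log2 ratio of 3.24. Called higher among all genes tested were 8.46% in the knockout and 1.89% in the summed wild type.

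The surface and olfactory ectoderm list held genes that moved in opposite directions. Epcam and Krt18, epithelial adhesion and filament genes, had 62.0 and 33.9 CPM in knockout Fgf cells, against 4.35 and 3.07 CPM in Fgf-zero cells, and both were called higher. Eya1, a placodal factor, was called lower, with 8.26 CPM in knockout Fgf cells and 34.1 CPM in Fgf-zero cells. Krt5, Krt14 and Trp63, which define surface ectoderm, had no UMI in knockout Fgf cells, and Krt5 and Krt14 had none in knockout Fgf-zero cells either. The 11 listed genes summed to 127, 266 and 473 CPM in Fgf cells of the knockout and wild-type libraries 1 and 2, against 51.8, 40.9 and 38.8 CPM in Fgf-zero cells.

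RNA of other lineages was measured without the genes that the rule limited. The 11 remaining mesenchymal genes summed to 93.1 CPM in knockout Fgf cells and 190 and 92.0 CPM in wild-type Fgf cells, against 53.4, 40.2 and 41.1 CPM in Fgf-zero cells. Col1a2, the mesenchymal gene called higher, had 45.1% of its UMIs in 1 cell. The 11 remaining neuronal genes summed to 222, 80.8 and 78.8 CPM in Fgf cells, against 317.5, 261 and 265 CPM. The 9 microglial genes summed to 3.86, 9.51 and 0 CPM, against 168, 172 and 128 CPM. Endothelial genes summed to 28.9, 47.5 and 105 CPM, against 19.2, 12.2 and 12.4 CPM, with Cdh5 and Tie1 at 0 in knockout Fgf cells.

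Haemoglobin RNA was uneven between genotypes. The 9 erythroid genes summed to 9832 CPM in knockout Fgf cells and 357 and 407 CPM in wild-type Fgf cells, against 37630, 58860 and 69190 CPM in Fgf-zero cells. Their part in the comparisons of Fgf cells between genotypes was not tested; the calls without erythroid cells are among the alternatives and stayed within 1.5 times the main counts.

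Several Bmp signalling genes were high in both genotypes. Of 29 listed, 13 were tested in the knockout with 6 higher and 1 lower (median 0.92), and 11 in the summed wild type with 6 higher and 1 lower (median 2.86). Of those tested, 4 in the knockout and 2 in the wild type passed through the Fgf side alone and so had to be higher. Among all genes tested, 8.46% were higher and 2.38% lower in the knockout, and 1.89% and 8.75% in the summed wild type. Bmp4, a midline ligand, had 31.1 CPM in knockout Fgf cells and 181 and 184 CPM in wild-type Fgf cells, against 3.30, 3.82 and 2.98 CPM in Fgf-zero cells. Msx1, a Bmp target, had 24.5, 228 and 302 CPM in Fgf cells, against 12.51, 9.108 and 7.985 CPM. Id1 and Id2, also Bmp targets, had 166 and 112 CPM in knockout Fgf cells, against 29.8 and 26.8 CPM in Fgf-zero cells. Bmp4 and Msx1 were therefore lower by value in knockout than in wild-type Fgf cells. Neither gene could be called lower between genotypes, because wild-type Fgf cells held fewer UMIs of it than such a call needed. Nothing is read from the lack of a call.

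Grem1, a Bmp antagonist, had the largest log2 ratio among the named knockout genes, with 94.2 CPM in Fgf cells and 0.153 CPM in Fgf-zero cells. It came from 18 cells, and 1 of them held 64.0% of its UMIs. Sostdc1, a secreted antagonist of Bmp and Wnt signals, was spread over more cells and libraries. It had 166 CPM in knockout Fgf cells and 242 and 394 CPM in wild-type Fgf cells, against 4.46, 2.94 and 1.97 CPM in Fgf-zero cells.

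Wnt and hedgehog genes followed in smaller numbers. Of 9 Wnt ligands and targets tested in the knockout, 3 passed through the Fgf side alone. Called higher were 2 of the 9 (Wnt5a at 43.8 and 15.2 CPM, Nkd1 at 92.8 and 39.9 CPM) and none lower, with a median of 0.52. The shares of all genes tested were 8.46% higher and 2.38% lower. Wnt8b, a ligand of the dorsomedial telencephalon, had 347.5 CPM in knockout Fgf cells and 884 and 959 CPM in wild-type Fgf cells, against 265, 190 and 183 CPM in Fgf-zero cells. Ptch1, the hedgehog receptor and target, had 79.0 CPM in knockout Fgf cells, 6.87 times its level in Fgf-zero cells. Shh had no UMI in knockout Fgf cells, and Gas1, a co-receptor, was lower at 188 and 392 CPM.

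Cell cycle genes were measured by list. None of 20 S phase genes was called higher in the knockout, 1 was lower, and all 20 had the lower CPM in Fgf cells. They summed to 1601, 1402 and 670 CPM in Fgf cells of the knockout and wild-type libraries 1 and 2, against 2310, 2874 and 2785 CPM in Fgf-zero cells. Of the 20 G2 and M phase genes none was called in the knockout. In the summed wild type 12 of 19 S phase genes and 3 of 20 G2 and M phase genes were lower, beside 8.75% of all genes. All 19 S phase genes and 13 of the 20 others passed through the Fgf-zero side alone and could only be called lower.

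The other genes named for the knockout by the largest log2 ratio were Cldn3, Pmaip1, Shtn1, Gad2, Ecrg4, Glis3 and Cthrc1. Cldn3, a tight junction claudin, had 69.4 CPM in knockout Fgf cells and 85.6 and 158 CPM in wild-type Fgf cells, against 0.610, 0.194 and 0.254 CPM in Fgf-zero cells. Gad2, an enzyme of GABA synthesis, had 29.5 CPM from 53 knockout cells and no UMI in wild-type Fgf cells. Pmaip1, a p53 target, had 37.5% of its UMIs in 1 cell. The lowest genes by ratio in the knockout were led by the microglial genes Pf4, C1qa, Tyrobp, C1qb and Fcer1g, which no longer passed once blood, microglial and endothelial cells were left out of the Fgf-zero cells. Dct, Gria2, Cadps, Ror2, Lrrc4c and Adamts19 followed, with ratios of 0.0914 to 0.190.

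In the summed wild type the highest were Pdzd2, Cthrc1, Colec12, Six3, Sulf1, Sostdc1, Rbm47, Zic4, Folr1, Clu, Otx2 and Clic6. Cthrc1, a secreted modulator of Wnt signalling, had 41.3 CPM in knockout Fgf cells, against 262 and 250 CPM in wild-type Fgf cells. Colec12, a scavenger receptor, had 466 and 552 CPM in wild-type Fgf cells, against 3.32 and 2.25 CPM in Fgf-zero cells. Lowest were Mt1, Fgfr3, Lmo2, Nr2f1, Fut9, Nrarp, Slc4a1, Elavl4, Rhd, Lhx2, Fzd9 and Cadps, of which Slc4a1 and Rhd are erythroid genes. The genotypes shared 56 genes called higher, 9.93% of the 564 of the knockout and 51.9% of the 108 of the wild type. They shared 109 called lower, 68.6% and 21.8% of the lists. Of the 564, 157 were tested in the wild type.

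The knockout Fgf cells were split into a part led by Fgf8 and a part led by Fgf17, and these differed in regional genes. The split uses the ligand UMIs that chose the cells. Some cells led by 1 UMI only, so the parts need not be separate kinds of cells. With the ligands themselves left aside, 71 of 6206 genes tested (1.14%) were higher in the 89 Fgf8-led cells and 163 (2.63%) were lower than in the 230 Fgf17-led cells. Rspo3 had 1639 CPM in Fgf8-led and 166 CPM in Fgf17-led cells, a ratio of 9.85 [8.82 to 11.0]. Olig3, a dorsal neural tube and thalamic progenitor factor, had 53.7 CPM in Fgf8-led cells and no UMI in Fgf17-led cells, at least 42.1-fold higher. Barhl2, a diencephalic homeobox factor, had 72.5 and 0.425 CPM, the lower value resting on 1 UMI (ratio 171 [29.8 to 6834]). Trpm3, a cation channel high in choroid plexus, had 266 and 25.9 CPM, and Apcdd1, an inhibitor of Wnt signalling, had 324 and 17.8 CPM.

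Barhl2 or Olig3 was detected in 37 of 89 Fgf8-led cells (41.6%) and in 1 of 230 Fgf17-led cells (0.435%). Of those 37 cells, 26 also had a Six3 UMI. Six3 was detected in 63 of 89 Fgf8-led cells (70.8%), so its share among the 37 was close to that of all Fgf8-led cells. Doublets were not removed, and nothing is read from the overlap. In Fgf17-led cells Six3 was detected in 80.9%. The remaining genes named as higher in Fgf8-led cells were Epha3, Cpne8, Ntng1, Wif1, Cenpw, Adgrl3 and Otx1.

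Fgf17-led cells had more Sp8, Pax5 and Pax2 RNA. Sp8 had 16.95 CPM in Fgf8-led and 101.5 CPM in Fgf17-led cells. Pax5 had 4.71 and 51.8 CPM, and Pax2 had 5.65 and 38.6 CPM, the 2 genes of the isthmic list that were tested. Among those below the limits, Pax8 had 12.2 and 18.7 CPM and Cnpy1 had 0.942 and 5.52 CPM. En1 had 3.77 and 0 CPM, and Wnt1 had 1.88 and 1.70 CPM. Grem1, Islr, Stra6, Ptgds, Nbl1, Optc, Col1a2 and St8sia3 were the other genes named as lower in Fgf8-led cells, with the caveat on single cells given for Grem1 and Col1a2. Median depth was 8862 UMIs in Fgf8-led and 6964.5 UMIs in Fgf17-led cells.

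Feedback genes were present in both parts. Of 16 tested, none was higher in Fgf8-led cells and 4 were lower, with a median log2 ratio of -0.28 beside -0.02 for all genes tested. Spry1 had 195 CPM in Fgf8-led and 198 CPM in Fgf17-led cells. Il17rd had 154.5 and 403 CPM, and Etv5 had 19.8 and 63.3 CPM. Fgf15 ran the other way, with 204 CPM in Fgf8-led and 63.3 CPM in Fgf17-led cells. Erythroid RNA differed too: 6 of 7 genes tested were higher in Fgf8-led cells, with Hbb-y at 9427 and 4065 CPM, and its part was not tested.

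**Figure D4:**
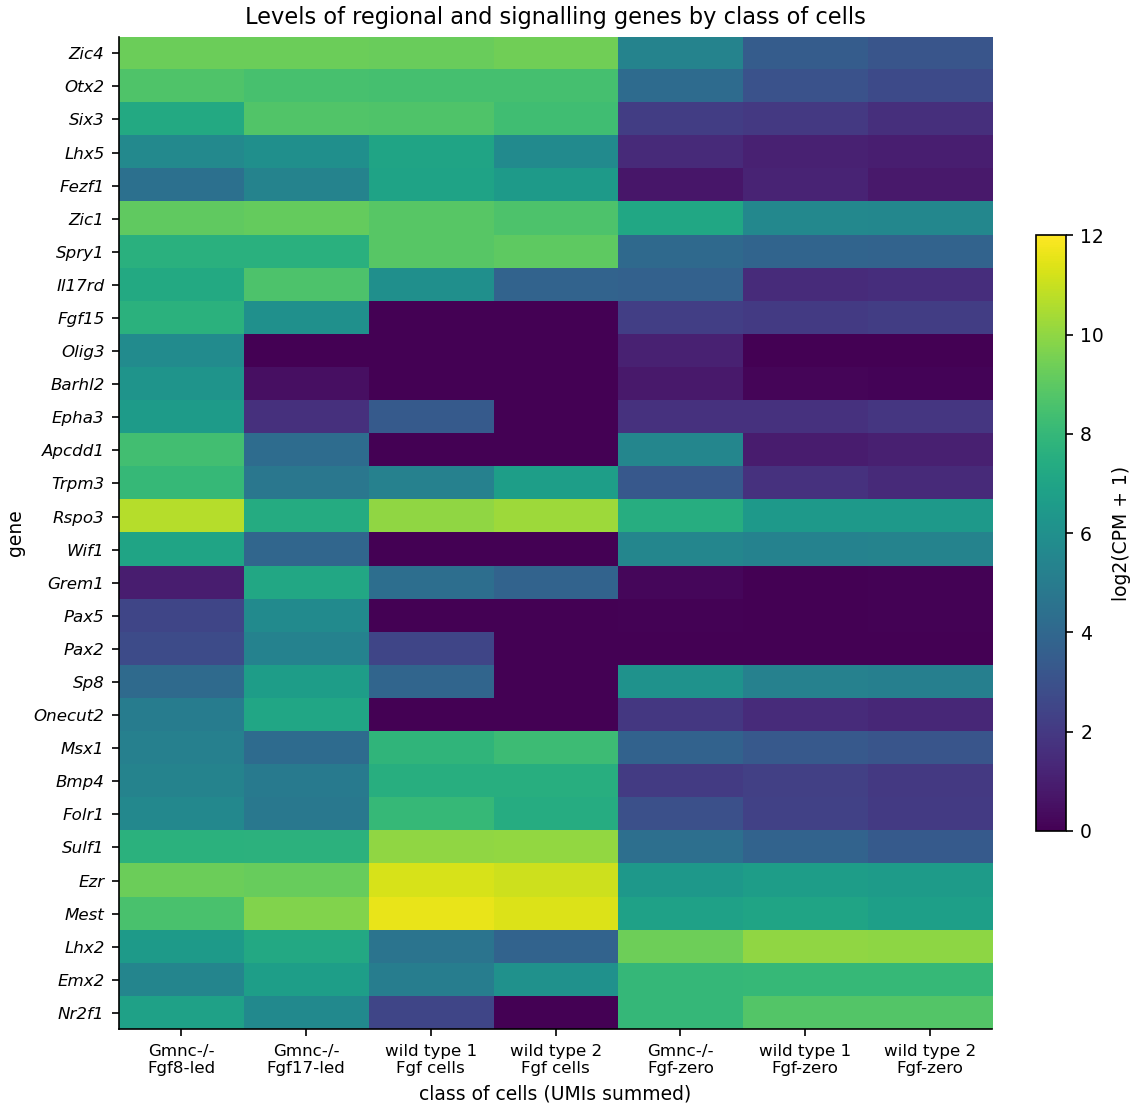
Heat map of log2(CPM + 1) for selected regional, signalling and target genes (rows) in knockout Fgf8-led and Fgf17-led cells, wild-type Fgf cells and the Fgf-zero cells of each library (columns; UMIs summed per class). Zic4, Otx2 and Six3 are high in all Fgf columns, Olig3 and Barhl2 in the Fgf8-led column alone, and Sp8, Pax2 and Pax5 are higher in the Fgf17-led than in the Fgf8-led column.

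Between genotypes, Fgf cells were compared against each wild-type library. A lower call in the knockout needed at least 50 UMIs in the Fgf cells of each wild-type library. Those classes held 211016 and 76346 UMIs, against 3666564 in the knockout, so a gene scarce in them could only be called higher. Of 6362 genes tested, 125 (1.96%) were higher and 13 (0.204%) lower in knockout than in wild-type Fgf cells; leaving out wild-type library 1 gave 207 and 18, and leaving out library 2 gave 379 and 56. To set aside differences that Fgf-zero cells show too, the log2 difference had to exceed theirs by at least 1 in the same direction, which 72 higher (1.13%) and 7 lower (0.110%) genes met.

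All but 1 of the 7 genes lower in the knockout were among the 9 called higher in Fgf cells of every library, the exception being Wnt8b. Both calls needed at least 50 UMIs in the Fgf cells of each wild-type library. Both therefore drew on the same abundant genes, and nothing is read from the overlap. Sulf1 had 216 CPM in knockout Fgf cells, against 1032 and 1064 CPM in wild-type Fgf cells, a ratio of 0.207 [0.181 to 0.238] to the summed wild type. Wnt8b had 347.5 CPM, against 884 and 959 CPM. Mest, an imprinted gene, had 695 CPM, against 3057 and 2654 CPM, and Ezr, a linker of membrane and actin, had 604.5 CPM, against 2462 and 2142 CPM. Nxn, Igfbp2 and Cdkn1c were the others, with log2 differences of -1.83, -1.40 and -1.24. In Fgf-zero cells the log2 differences of all 7 genes lay between -0.24 and 0.73. The 6 genes other than Wnt8b were higher in Fgf cells than in Fgf-zero cells of both genotypes, at a lower level in the knockout.

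Among genes higher in the knockout, Fgf15, Onecut2, Nrp2 and Fut9 had no UMI in wild-type Fgf cells and differed by under 1 on the log2 scale between genotypes in Fgf-zero cells. Fgf15 was at least 10.3-fold higher in knockout than in wild-type Fgf cells, while Fgf-zero cells had 3.74 CPM in the knockout, against 3.101 and 3.486 CPM in the wild type. Onecut2, a transcription factor of early neurons and retina, had 97.8 CPM in knockout Fgf cells, at least 9.34-fold higher, and 2.90 CPM in knockout, against 1.77 and 1.49 CPM in wild-type Fgf-zero cells. Nrp2, a semaphorin receptor, had 56.7 CPM, at least 5.42-fold higher. Fut9 was at least 5.52-fold higher, with Fgf-zero cells at 134 CPM in the knockout and 90.9 and 90.5 CPM in the wild type.

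The other named genes were Atp6v0c, Apcdd1, Galnt2, Cox16, Rbm4, Btg3, Pgk1 and Fabp7, and all of them differed by over 1 on the log2 scale between genotypes in Fgf-zero cells as well. Atp6v0c, for example, had 316 CPM in knockout and 0 in wild-type Fgf cells, and 253 CPM in knockout, against 0.526 and 0.887 CPM in wild-type Fgf-zero cells. The gene sets used for counting differed between the genotypes, and their part in such differences was not tested. Fabp7, a radial glial lipid carrier, had 364 CPM in knockout Fgf cells, against 9.51 and 13.1 CPM in wild-type Fgf cells, and 470 CPM against 149 and 143 CPM in Fgf-zero cells.

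By list, 1 of 14 feedback genes tested was higher in knockout than in wild-type Fgf cells and none lower. Of 14 neural progenitor genes 4 were higher, of 11 developmental timing genes 5, of 10 telencephalic genes 2, and of 7 erythroid genes 7, beside 1.96% of all genes tested. Listed genes scarce in wild-type Fgf cells could only be called higher, so these counts are a description. Stage and erythroid RNA move with this comparison, and their part was not tested.

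**Figure D5:**
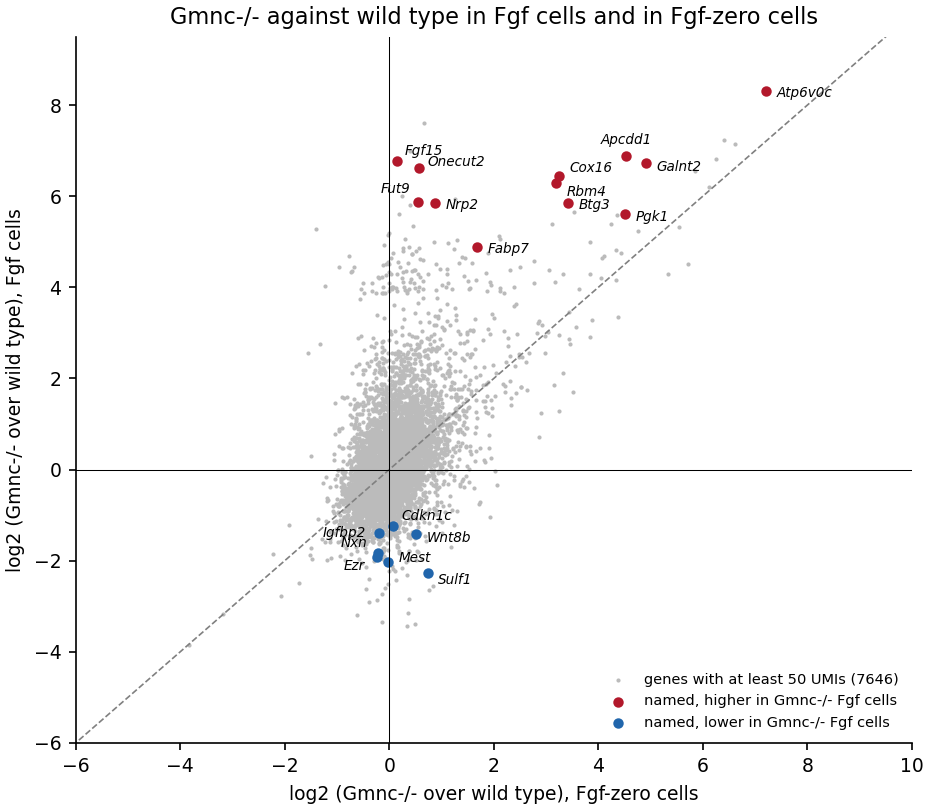
Log2 difference of knockout over wild type in Fgf cells (vertical) against the same difference in Fgf-zero cells (horizontal), one point per gene with at least 50 UMIs in a class of Fgf cells; named genes are coloured and the dashed line marks equal differences. Fgf15 and Onecut2 lie near 0 on the horizontal axis and, with no UMI in wild-type Fgf cells, at 6.76 and 6.63 on the vertical only through the pseudocount of 1 CPM, Sulf1 lies at -2.28 on the vertical, and Atp6v0c lies far to the right as well as high.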

How the data were processed

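Midline tissue of Gmnc-/- (1 library) and wild-type embryos (2 libraries from 1 suspension) was measured with 10x 3′ sequencing; about 20000 cells were loaded per library. The files deposited by the authors hold raw UMI counts for each gene in each barcode, from alignments to mm10. The submitters' processing notes name Cell Ranger 3.1.0; per the file headers, knockout files were made with 6.0.0 and wild-type files with 3.1.0. Knockout files listed 32285 features and wild-type files 28001; the 27040 with an Ensembl ID in both were kept (99.2%, 99.8% and 99.8% of UMIs in the knockout and wild-type libraries 1 and 2). Coordinates of genes are those of GENCODE vM21 (GRCm38).

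Within each class and library, UMIs were added over cells and scaled to CPM, with exact Poisson intervals; ratio intervals were conditional on summed counts, and shares were given Clopper-Pearson intervals, all at 95%. Log2 ratios used a pseudocount of 1 CPM. A class without UMIs was given a bound from 3 counts over the class. Genes the rule used were left out of every comparison across genes and every list sum. Erythroid cells were those with at least 20% haemoglobin UMIs. Named genes were the 12 highest and 12 lowest by the smallest log2 ratio over the libraries compared, without mitochondrial, ribosomal, haemoglobin, sex-linked and predicted genes, plus members of the Fgf lists and up to 4 members of any other list. A few genes of the lists, and a division of the Fgf cells by one of them, are not reported here, and the lists are counted without them. The members and the 31 gene lists were chosen with earlier results of these data known. On simulated data, all 50 genes at each of 3-, 4- and 6-fold were called at the size of the knockout classes and none of 6025 unchanged genes was. At the size of the summed wild type, 37 of 5798 unchanged genes were called. The simulated class sums varied by Poisson counting only, and changed genes were drawn from those expected to pass the count limits. These rates therefore do not carry over to genes whose UMIs lie in few cells. Doublets were not removed; leaving out cells above the 90th percentile of UMIs was an alternative, as were other ligand thresholds, scalings, count limits, thinning and leaving out each library. Python 3.11.15, numpy 2.4.6, pandas 2.3.3, scipy 1.17.1 and matplotlib 3.10.9 were used.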

Additional observations from a re-analysis of the deposited data

Results flagged for a closer look

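Crabp2, which binds retinoic acid in the cytoplasm, was called in opposite directions in the 2 genotypes. Its log2 ratio of Fgf cells over Fgf-zero cells was -1.39 in the knockout, where Fgf cells had 36.4 CPM and Fgf-zero cells 96.9 CPM. In the summed wild type it was 1.21, with 352 and 329 CPM in Fgf cells of libraries 1 and 2, against 149.5 and 148.5 CPM in Fgf-zero cells. The gene was picked out after its values were seen, and the difference between genotypes was not tested.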

How the results depend on the processing

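No paired analysis was possible because no result comes from a test. The knockout share was 2.50% at 2 ligand UMIs, 1.795% at 5 and 2.65% after thinning, and the wild-type share after thinning was 0.268%. Genes higher in Fgf cells numbered 14 at 2 ligand UMIs, 5 at 5% mitochondrial UMIs, 91 at 10 UMIs and 5 CPM, and 336 at 1 UMI; genes lower numbered 100 with median-of-ratios scaling and 111 with the mean CPM per cell. That scaling lowered every log2 ratio of Fgf over Fgf-zero cells by 0.20 in the knockout and 0.31 in the wild type. For knockout over wild type, 79 were higher and 8 lower at 5% mitochondrial UMIs, 220 and 536 higher with the scaling and the mean per cell, and 91 and 149 lower at the looser count limits. Leaving out one library gave 9 to 38 genes higher, 54 to 143 lower, medians of the feedback list over both genotypes of 0.24 to 2.09 (2.085 with all libraries), and 207 to 379 higher and 18 to 56 lower between genotypes. Alternatives added after seeing the data: the knockout alone gave 564 higher and 159 lower, the summed wild type 108 and 500 with a feedback median of 0.33, and against the summed wild type the knockout had 463 higher and 75 lower. Cells with Xist and no Y-linked UMI gave a knockout share of 4.025%, and 72 higher and 7 lower between genotypes. Without blood, microglial and endothelial cells, Tyrobp, C1qb and Fcer1g had reversed log2 ratios of 0.048, 0.132 and 0.33 in the knockout. The causes were not tested, except that looser limits test more genes and that leaving out a library asks for the call in fewer of them. Of 648 values of single genes under alternatives, 642 were labelled the same, 3 were weaker in the same direction, and the 3 just given reversed. The weaker ones were Pf4 and C1qa without blood, microglial and endothelial cells, and Spry4 with the pseudocount of 5 CPM. Spry4 was below the count limits and was not called at the main setting either. Limits include the 26 wild-type Fgf cells, so low genes there may be undetected rather than absent, and the 1 suspension per genotype.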

Other observations

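Guidance and adhesion genes were among the RNAs of the Fgf cells not yet described. Of 28 listed, 17 were tested in the knockout, 7 were called higher and 3 lower, with a median log2 ratio of 0.76 beside 0.11 for all genes tested; 7 of the 17 passed the count limit through the Fgf side alone. Slit2, a midline repellent for commissural axons, had 210 CPM in knockout Fgf cells and 171 and 145 CPM in wild-type Fgf cells, against 58.1, 35.0 and 37.2 CPM in the Fgf-zero cells of the same libraries. Dcc, a netrin receptor, had 69.4 CPM in knockout Fgf cells and 31.0 CPM in knockout Fgf-zero cells, while wild-type Fgf cells had 4.75 and 0 CPM. Unc5c, Efna5, Epha3, Cdh6 and Cdh11 were the other genes called higher, and Efnb1, Epha4 and Epha5 were lower. Of 9 tested in the summed wild type, 1 was higher and 3 were lower, with a median of -0.45. Through the Fgf-zero side alone passed 8 of the 9. Shares of all genes tested were 8.46% higher and 2.38% lower in the knockout, and 1.89% and 8.75% in the summed wild type.

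Of 15 listed subpallial genes, 8 had the higher and 3 the lower CPM in knockout Fgf cells, and only Six3, which the rostral list also holds, was tested. Gsx1, Gsx2, Dlx1, Dlx6, Lhx6, Lhx8 and Isl1 had no UMI in knockout Fgf cells. Olig2, Olig1 and Nkx2-1, factors of ventral progenitors, had 9.36, 7.71 and 6.885 CPM in knockout Fgf cells, against 0.381, 0.114 and 0 CPM in knockout Fgf-zero cells, below the level needed for a call. Rfx3, a regulator of cilium genes, had 72.7 CPM in knockout Fgf cells and 76.1 and 65.7 CPM in wild-type Fgf cells, against 19.4, 11.9 and 13.0 CPM in Fgf-zero cells.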
